A study of Mus musculus with 6 samples.

Results

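The S100 genes encode small calcium-binding proteins, and 10 of them were followed here in mouse RPE/choroid: S100a1, S100a4, S100a6, S100a8, S100a9, S100a10, S100a11, S100a13, S100a16 and S100b. The genes were taken by symbol from the 33924 genes of the deposited table, and all 10 were found. RPE/choroid is the retinal pigment epithelium (RPE), the pigmented cell layer behind the photoreceptors, together with the vascular choroid beneath it, scraped from the eyecup. Total RNA was sequenced after removal of ribosomal RNA, without selection for poly(A) tails, in 3 libraries from young and 3 from aged C57BL/6J mice, a common inbred strain, with no further treatment or allele. Each mouse is male by its label, whereas the published methods list males and females, and each library was made from a pair of eyes according to those methods. The young mice were 1 to 2 months old by the labels, and the methods give a slightly higher range. The aged mice were 20 to 24 months old by the titles and 22 to 24 months by the time label.

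The table gives 1 level per gene, the authors' mean over all 6 libraries in normalized counts, which are counts scaled for library size. Its other columns hold the authors' own comparison of the ages and were not used here. The levels below therefore pool young and aged mice and carry no error, and whether any S100 gene differed with age was not analysed here. The depth of each library is unknown here, and the study states an average only. In a bulk sample, more cells of a type and more RNA per cell cannot be told apart.

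S100 proteins are mostly dimers in which each chain carries a pair of calcium-binding helix-loop-helix motifs, the EF-hands. The first of these has a loop particular to the family, and the other has the classical loop of calcium-binding proteins. Calcium binding exposes a surface through which an S100 protein holds its targets, among them annexins, cytoskeletal proteins and ion channels. Some members are also released from cells and act on receptors of innate immunity. S100b is widely used as a marker of glia and Schwann cells, and S100a8 with S100a9 as a marker of neutrophils and activated monocytes.

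To show how the members differ at the second loop, the one shared with other calcium-binding proteins, the bases that encode the classical loop are given for 5 of them, read 5′ to 3′ from GENCODE M21 transcripts (GRCm38). Capitals mark the codons for loop positions at which side chains commonly hold calcium. A search of the translated proteins for the letters of a classical loop found 1 match in 9 of the 10 members and 0 in S100a10, which is known as the member that does not bind calcium. For S100a10 the stretch aligned with the S100a6 loop is shown, residues 60 to 71.
S100a1: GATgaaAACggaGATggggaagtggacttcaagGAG
S100a6: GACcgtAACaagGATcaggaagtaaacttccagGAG
S100a9: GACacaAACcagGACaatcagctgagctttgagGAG
S100a11: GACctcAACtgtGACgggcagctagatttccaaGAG
S100a10: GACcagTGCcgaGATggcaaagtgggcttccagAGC

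The level of the S100 family in RPE/choroid lay in a few genes. S100b, S100a1 and S100a6 together held 79.5% of the summed level of the 10 genes, whereas S100a8, S100a9 and S100a11 held 0.428%, 0.587% and 0.169%. The 10 genes summed to 19028 normalized counts, which was 0.0991% of the summed level of the whole table. The highest member stood 247-fold above the lowest in normalized counts, 85.2-fold per kb of longest transcript and 263-fold per kb of coding sequence. The lowest was S100a11, whose read assignment is uncertain, and S100b stood 97.6-fold above S100a8, the next lowest in normalized counts. All 10 had a level above 0, as had 26681 genes of the table.

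S100b, expressed in glia and other cells of neural origin, had the highest level in normalized counts, 7957, at rank 238 of the genes above 0. S100a1, known for its action on calcium handling in striated muscle, had 3638 normalized counts at rank 885. S100a6, or calcyclin, common in fibroblasts and epithelia, had 3527 normalized counts at rank 931. These were the 3 members at or above the 90th percentile of the genes above 0, which stood at 1700 normalized counts.

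The next members in level are best known through the proteins they bind. S100a10, the partner of annexin A2, lay just below that percentile with 1541 normalized counts. S100a16 had 993 normalized counts and S100a13, which takes part in the release of fibroblast growth factor 1, had 637. S100a4, which binds non-muscle myosin, had 508 normalized counts. All 4 lay between the 71.9 and the 88.9 percentile.

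The lowest levels were those of the inflammatory pair and of S100a11. S100a9 and S100a8, whose proteins join as calprotectin, had 112 and 81.5 normalized counts, close to the median of 82.1 for genes above 0. Among genes with at least 10 normalized counts, S100a9 stood at the 29.7 percentile and S100a8 at the 25.7. The level of S100a9 was 1.37-fold that of S100a8 in normalized counts and 1.31-fold per kb. S100a11, a partner of annexin A1, had 32.2 normalized counts, at the 42.5 percentile of the genes above 0 and at the 14.6 of those with at least 10.

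Longer transcripts collect more reads, and the deposited values were taken as not corrected for length, so levels of different genes were compared per kb of the longest transcript in GENCODE M21. On this scale S100b and S100a1 were nearly level, with 5362 and 5374 normalized counts per kb, because the S100b transcript has 1484 bases and the longest S100a1 transcript 677. S100a6 followed with 4505 and S100a10 with 2250 normalized counts per kb. The order at the top depended on the length: per kb of coding sequence S100b led with 28521 normalized counts, before S100a6 with 13064 and S100a1 with 12765. S100a4, S100a13 and S100a16 had 1021, 891 and 881 normalized counts per kb, and 1662, 1319 and 2647 per kb of coding sequence. S100a9, S100a8 and S100a11 were again the lowest, with 215, 164 and 63.0 normalized counts per kb. They stood at the 75.3, 70.1 and 54.0 percentile per kb, where the median was 46.7 normalized counts per kb. Per kb of coding sequence these percentiles were 58.7, 56.8 and 37.8. With the longest transcript, 7 of the 10 members lay at or above the 90th percentile per kb. That percentile was 530 normalized counts per kb over 22863 genes with a length. Without values per library, no neighbours in this order could be tested against each other.

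**Figure D1:**
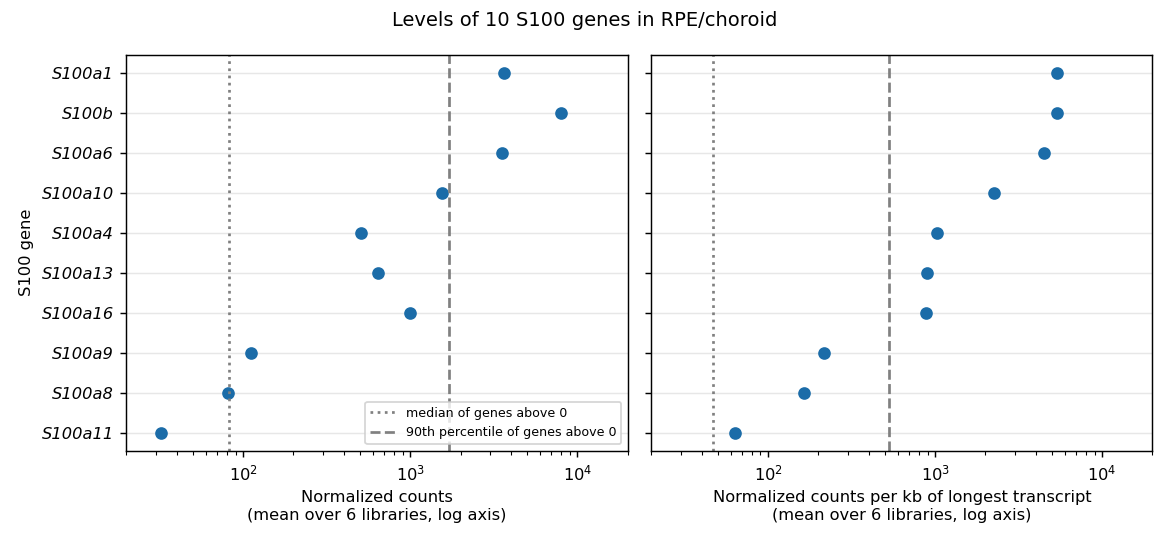
Levels of the 10 S100 genes as normalized counts (left) and as normalized counts per kb of the longest transcript (right), both means over 6 libraries on log axes; dotted and dashed lines give the median and the 90th percentile of the genes above 0. S100b is highest on the left, at 7957, and level with S100a1 on the right, while S100a11 is lowest on both.

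Of the members, 9 lie on chromosome 3, and S100b lies on chromosome 10 at 76253853 to 76261159 (GRCm38). The first stretch on chromosome 3 runs from 90511034 to 90695721, 185 kb that hold 11 S100 genes of the table, from S100a1 to S100a9. S100a11 and S100a10 lie 2.82 Mb further on, at 93520488 to 93526287 and at 93555080 to 93564643. The region between is that of epidermal differentiation genes, and among its 53 listed protein-coding genes, 36 stood at 0 and 3 had 10 or more normalized counts.

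Neighbouring S100 genes differed widely in level. S100a1 and S100a13 lie head to head on opposite strands with 42 bases between their annotated ends, and the level of S100a1 was 6.03-fold that of S100a13 per kb and 9.68-fold per kb of coding sequence. S100a4 and S100a6 lie on the same strand with S100a5 between them. The level of S100a6 was 4.41-fold that of S100a4 per kb and 7.86-fold per kb of coding sequence, and S100a5 was listed at 0. S100a8 and S100a9, adjacent on opposite strands, had similar levels.

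**Figure D2:**
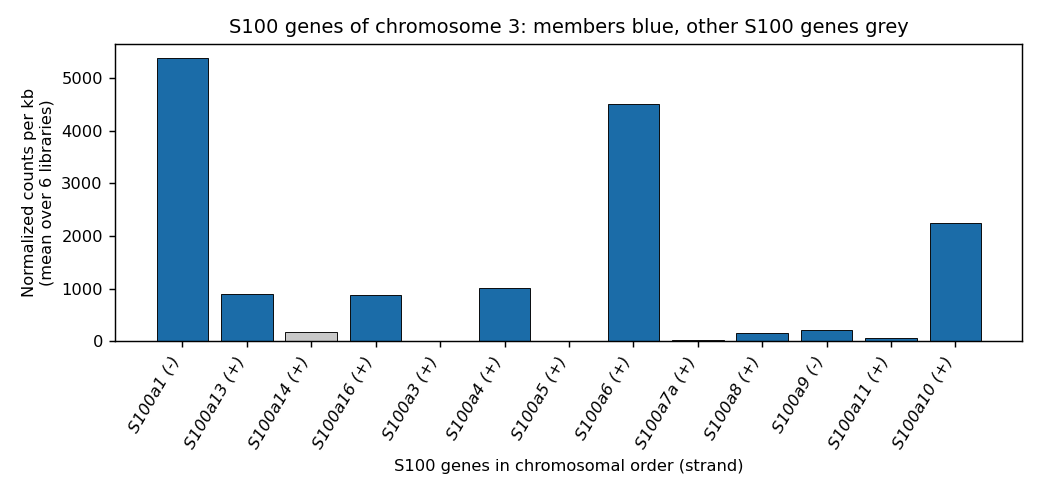
Normalized counts per kb of the longest transcript (bars, means over 6 libraries) for the 13 S100 genes of chromosome 3 that the table lists, in chromosomal order, with the strand in brackets; members are blue and other S100 genes grey. S100a1, S100a6 and S100a10 stand out at 5374, 4505 and 2250.

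The table held 6 further S100 genes, and they added 1.73% of the family's summed level. S100a14, an epithelial member, had 288 normalized counts, more than S100a8, S100a9 and S100a11, and its place against S100a9 depended on the length, with 171 against 215 normalized counts per kb of longest transcript and 915 against 326 per kb of coding sequence. S100a7a and S100a3, known from skin and hair, had 31.6 and 12.9 normalized counts. S100g, the intestinal calbindin, had 2.86 normalized counts. S100a5 and S100z were listed at 0.

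The assignment of reads is uncertain for S100a11 and S100a4. Only 51.1% of the 31-base words of S100a11 transcripts occur in no other annotated gene, and 6 processed pseudogenes share the rest. The stretch of 36 bases printed above for S100a11 occurs with 0 mismatches in the pseudogenes Gm12854 and Gm29240 and with 1 in Gm7665. Gm12854 had 44.3 normalized counts, more than S100a11 itself, and Gm7665 had 12.7. S100a11 and the 4 of these pseudogenes in the table summed to 89.7 normalized counts, above the 81.5 of S100a8 and below the 112 of S100a9. For S100a4, 50.8% of the words occur in no other gene. The others are shared with Gm42674, an overlapping gene model of M21 that the table does not list under that symbol, so the older annotation may have treated these reads differently. For the other 8 members at least 99.6% of the words were their own. What part this sharing had in the levels was not tested.

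The proteins were compared to show which members are most alike. S100a1 and S100b, the members with the highest level per kb of longest transcript, were also the closest pair of the 45, with 57.4% identity over aligned columns. S100a1 with S100a4 and S100a4 with S100a6 followed at 44.6%. The median over pairs was 28.3%. S100a8 and S100a9, though partners in calprotectin, had 25.7% identity. S100b carries 15 more acidic than basic residues and S100a1 carries 10 more, whereas S100a9, S100a10 and S100a13 each carry 1 more. S100a13 was translated from its only M21 transcript, which gives 160 residues, and its identities ran from 13.1% to 23.2% over aligned columns but from 23.6% to 38.6% over the shorter protein, where the median over pairs was 33.7%.

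**Figure D3:**
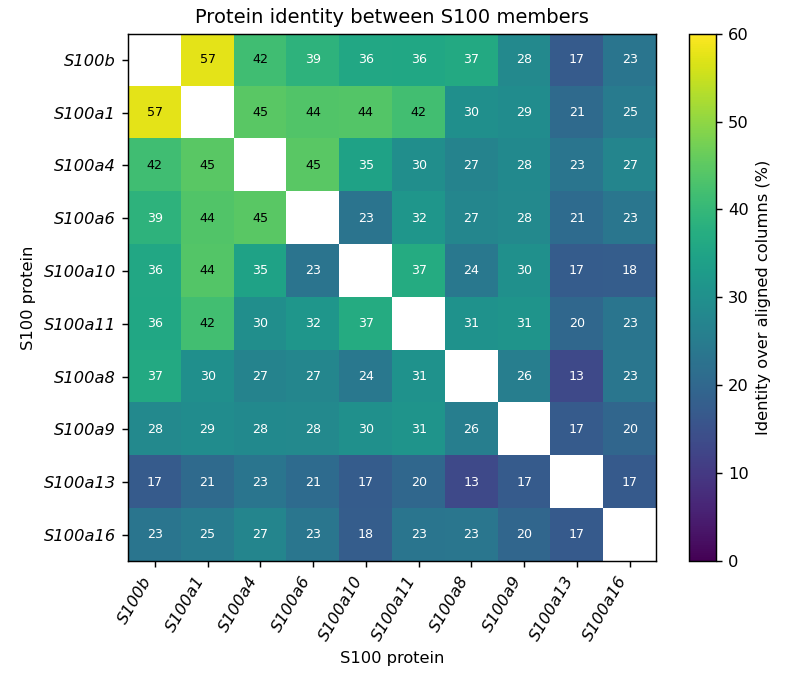
Percent identity between the proteins of the 10 S100 genes, from global alignments of proteins translated from GENCODE M21, with both axes listing the members and colour and numbers giving identity over aligned columns. S100a1 and S100b form the brightest cell, at 57.4%, and S100a13, at 160 residues the longest protein, has 13.1% to 23.2% with the others over aligned columns.

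Partners of S100 proteins were present at very different levels. Of 16 listed partners, 9 lay at or above the 90th percentile in normalized counts. For the heterotetramer of S100a10 and annexin A2, Anxa2 had 3025 normalized counts per kb, 1.34-fold the level of S100a10. Ahnak, a giant scaffold protein bound by that complex, had 3557 normalized counts per kb. Plat and Plau, the plasminogen activators, had 440 and 237 normalized counts per kb, and Plg, plasminogen itself, was near 0 at 0.200 normalized counts.

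Among the other partners, Anxa1 had 1949 normalized counts per kb, 30.9-fold the level of its partner S100a11, whose read assignment is uncertain (32.2 normalized counts alone and 89.7 with its listed copies). For S100a6, Anxa11 had 97.2 and Cacybp 543 normalized counts per kb, far below the 4505 of S100a6. Myh9, the non-muscle myosin heavy chain that S100a4 binds, had 1717 normalized counts per kb, beside 1021 for S100a4. Fgf1, released with the help of S100a13, had 623, beside 891 for S100a13. Among the calcium-handling partners of S100a1, Atp2a2, Ryr1 and Ryr2 had 865, 334 and 22.1 normalized counts per kb.

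Of the listed receptors, Bsg, a cell-surface protein abundant in RPE that can bind S100a9, had by far the highest level, with 14494 normalized counts per kb. Cd36 and Tlr4, receptors of the innate immune system, had 1051 and 333. Ager, the receptor for advanced glycation end products, which binds many S100 proteins, was low, with 27.2 normalized counts and 14.5 per kb.

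Related families were set beside the S100 members. The members had a median of 956 normalized counts per kb and ran from 63.0 to 5374. The 12 annexins had a median of 769 and ran from 0 to 5048, and 14 other EF-hand genes had a median of 805 and ran from 16.2 to 10745. Pvalb, a calcium buffer of fast muscle and of neurons, was the highest of these, at 10745. No test was run between these lists.

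Marker genes of the tissue were checked beside the S100 genes. Those of RPE were among the highest, with Rpe65 at 43745 and Ttr at 99321 normalized counts, and melanocyte genes such as Dct, which RPE also expresses, had up to 89145. Best1, an RPE channel gene, was low at 69.8 normalized counts. According to the published methods, the eye muscles, the optic nerve and the neural retina were taken away before the tissue was scraped. Rod and skeletal muscle genes were nevertheless present, with Gnat1 at 12334 and Myh4 at 51830 normalized counts. Of the fibroblast genes, Col1a1 had 45848 normalized counts. Endothelial genes ran from 1025 to 6377 normalized counts, and from 257 to 1187 per kb. The levels of the S100 genes cannot be divided among these cell types here.

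Markers that bear on particular members were read beside them. Beside S100a1, at 5374 normalized counts per kb, the 5 skeletal muscle markers ran from 1049 to 12062. Beside S100b, the 6 Schwann cell markers ran from 41.7 to 1272 normalized counts per kb, all below the 5362 of S100b, with Sox10 at 399. Of the 4 markers of Müller glia and astrocytes, only Glul lay above S100b, with 10247 normalized counts per kb. Gfap, Slc1a3 and Aqp4 had 417, 256 and 161. Beside S100a8 and S100a9, the 10 neutrophil markers ran from 0 to 44.8 normalized counts per kb, all below the 164 and 215 of the pair. In normalized counts 1 of them, Csf3r, stood at 132, above both. Mpo was listed at 0, and Ly6g and Elane were under 1 normalized count. Ltf, Camp, Mmp8 and Retnlg had 41.1, 33.9, 24.1 and 15.6 normalized counts, and Cxcr2 and Ngp had 9.16 and 2.92. The 5 macrophage markers in the table ran from 346 for Aif1 to 3633 for C1qa in normalized counts per kb. Beside S100a14, at 171 normalized counts per kb, the 5 surface epithelium markers ran from 12.6 for Epcam to 1487 for Krt12, a keratin of the cornea, with Krt14 at 164. The part of any of these cells in the S100 levels was not tested.

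**Figure D4:**
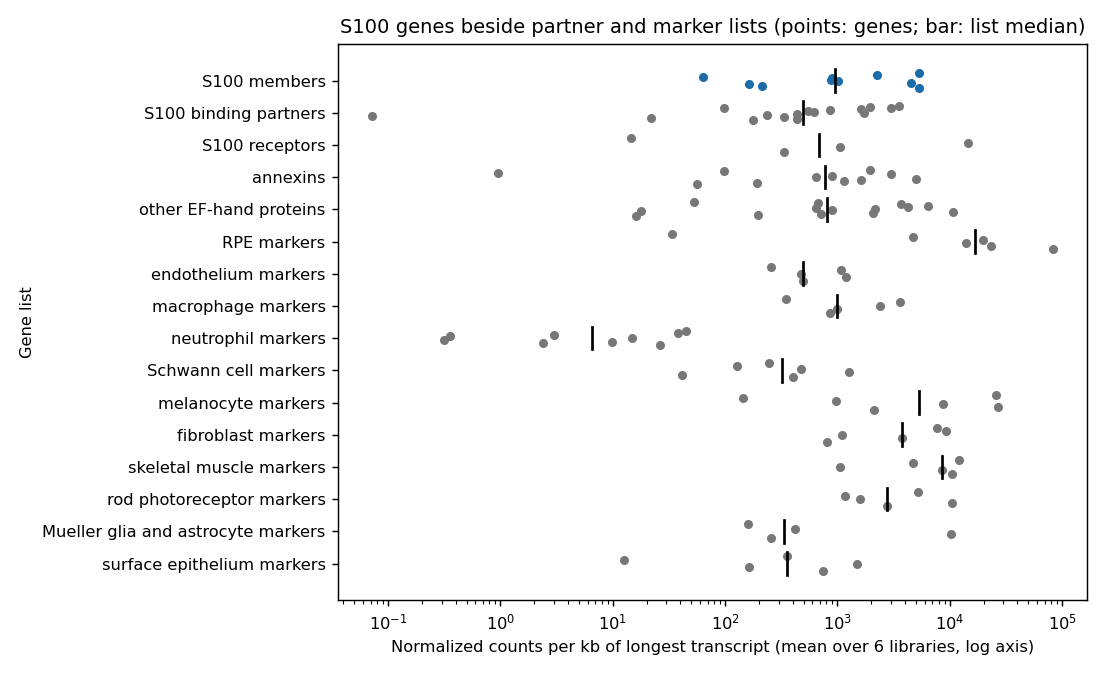
Normalized counts per kb of the longest transcript (log axis, means over 6 libraries) for the S100 members (blue) and for partner, receptor, family and marker lists (grey), with 1 point per gene above 0 and a bar at each list's median. The highest neutrophil marker lies at 44.8, under the S100a8 and S100a9 points at 164 and 215.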

How the data were processed

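RNA was measured in RPE/choroid of 3 young and 3 aged mice. Per the methods of the study, reads were trimmed with BBDuk, mapped with STAR to Ensembl transcripts of GRCm38, quantified with Sailfish as TPM, a length-corrected share of transcripts, and transformed into normalized counts by the total count method. The handling of reads shared between genes is not given in the sources used here. The table used here is that of the authors' DESeq2 comparison. Its baseMean column, a deposited signal that is never negative, is the authors' mean of normalized counts over all 6 libraries. The deposited log2 fold change, its standard error, the Wald statistic, the p-value and the adjusted p-value compare the ages and were not used, so the planned age comparison was not made. The table held 0 columns of values for single samples.

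Symbols were matched to GENCODE M21 (GRCm38), which gave a transcript length for 85.7% of the genes above 0. Levels were divided by the longest transcript. A TPM is already per length, so dividing by length would be a repeat correction had the deposited values kept the first. The 6 commonest values under 0.4, from 0.148 to 0.200, were held by 1338 genes. Of the 1063 of these with a transcript length, 147 had transcripts under 300 bases and 48 over 4000. The smallest step thus did not depend on length. Values rounded to whole numbers after a length correction would give the same steps, so these cannot show whether such a correction was kept. Percentiles count genes above 0 with a lower level. Words of 31 bases were compared across all M21 transcripts. Proteins were translated from M21, not RefSeq as planned, and aligned globally with BLOSUM62 (gap opening 11, extension 1) in Biopython 1.88. A classical loop was taken as 12 residues that start with D, have D, N or S at the third place, D, N, S or G at the fifth, and end with E. Python 3.11.15, pandas 2.3.3 and matplotlib 3.10.9 were used, and the alignment and percentile functions were tested on made-up data. Genes named are the members, every other S100 gene of the table, and genes of the partner, receptor, family and marker lists. Gm12854, Gm29240, Gm7665 and Gm42674 were added after the results were seen. Members and lists were chosen with earlier results of these data known. Some genes of the lists are not reported here, and loop sequences are printed for 5 members only.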

Additional observations from a re-analysis of the deposited data

How the results depend on the processing

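No paired analysis was possible because the column used here pools all libraries. Leaving out single libraries and the replicate block were therefore not run, and no value here carries an error. The number of members at or above the 90th percentile was 3 in normalized counts, and it was 3 among genes with at least 10 normalized counts and among protein-coding genes, although the percentiles of low members fell. Per kb it was 7 with the longest transcript, 6 with the mean transcript length and 5 with the coding length. The order of the highest members depends on the length used: S100a1 was first with the longest transcript, S100a6 with the mean length and S100b with the coding length. S100a10 kept the fourth place and S100a9, S100a8 and S100a11 the last places under each of these lengths. The share of the members in the table's sum was 0.0991%, 0.107% without the 10 most abundant genes, 0.338% per kb and 0.101% with all S100 genes. The median identity over pairs was 28.3%, and 33.7% over the shorter protein. Counts of reads behind each level are unknown here, so low levels such as that of S100a11 have a precision that cannot be given.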
